A study of Mus musculus with 9 samples.

Results

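Vstm2b and the antisense RNA A230077H06Rik are 2 genes on opposite strands of mouse chromosome 7 whose annotated ends overlap. They were taken as a pair because of measured values, namely that both had fewer counts in the mutant DRGs and that their counts moved together over the libraries. They make up 2 of the 55247 genes in the deposited table and 2 of the 13200 genes that reached at least 100 counts in at least 1 library, which are the genes tested below. The data are 9 RNA-seq libraries of whole dorsal root ganglia (DRG) at E18.5, with 3 libraries for each of 3 genotypes. The WT embryos are described by that name alone. Isl1Cre/+ embryos had the Cre recombinase in the Isl1 locus, which is active in sensory neurons of the ganglion and also in other Isl1 expressing cells such as motor neurons. Isl1Cre/+::Meis2LoxP/LoxP embryos, called mutant here, had the same Cre allele together with loxP sites around exon 8 of both copies of Meis2, so that the mutant and the Isl1Cre/+ control share the altered Isl1 locus. A whole ganglion library also holds RNA of glial, vascular and connective tissue cells.

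Vstm2b encodes a transmembrane protein with a V-set domain, the variable-type fold of the immunoglobulin superfamily, to which many adhesion molecules of the neuronal surface belong. A230077H06Rik is annotated as an antisense gene, meaning a transcript that is not known to encode a protein and that runs against a coding gene. Antisense transcripts that begin close to the promoter of a coding gene are common in mammalian genomes, and they can be made from the same open chromatin, act on their partner, or do neither. Meis2, the gene that loses exon 8 in Cre expressing cells of the mutant, encodes a homeodomain transcription factor of the TALE class, and MEIS factors bind a core hexamer, TGACAG.

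In GENCODE release M21 on GRCm38 (mm10), Vstm2b (ENSMUSG00000039257.11) occupies chr7:40898328-40930594 on the plus strand and A230077H06Rik (ENSMUSG00000100600.6) chr7:40818476-40900937 on the minus strand. Each has 4 annotated transcripts. The gene bodies overlap by 2610 bases at their 5′ ends, so the genes point away from each other. The transcript A230077H06Rik-201 starts 4 bases before the start of Vstm2b-201, on the other strand. A230077H06Rik-204 and A230077H06Rik-202 start 274 and 2609 bases inside Vstm2b, and A230077H06Rik-203 starts 23004 bases before it. Most of the exon sequence is not shared. Of 2747 exon bases of Vstm2b, 222 lie opposite to an exon of A230077H06Rik, which is 8.08%, and the same 222 bases are 4.25% of the 5229 exon bases of A230077H06Rik.

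**Figure D1:**
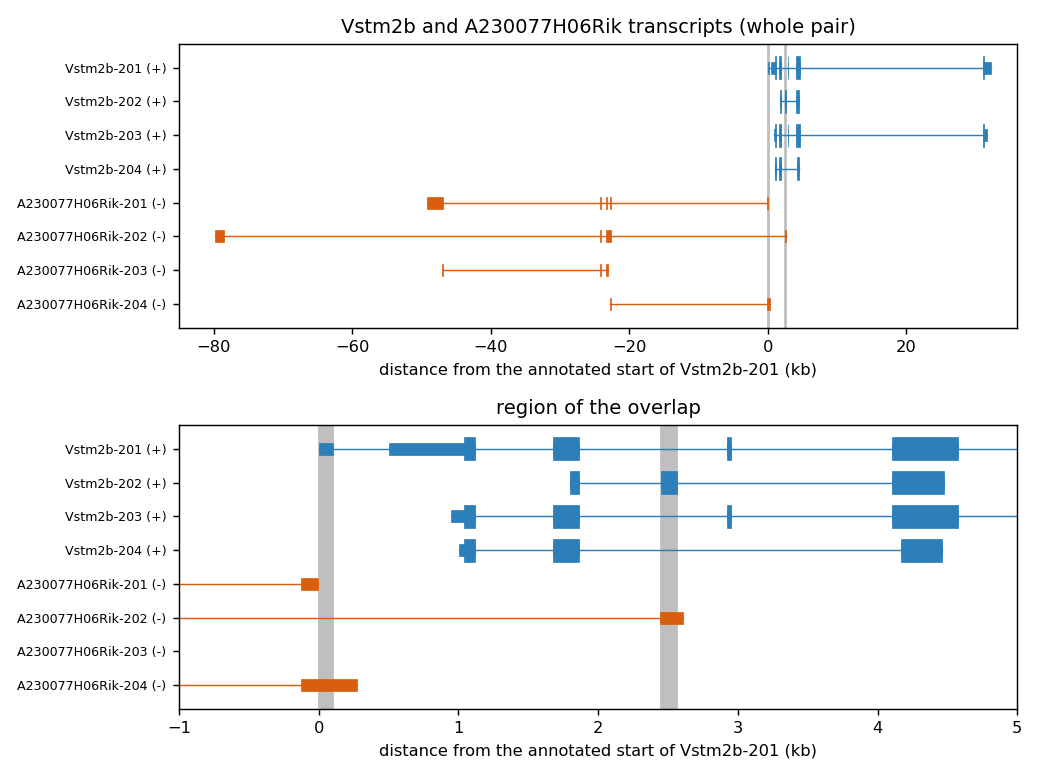
Annotated transcripts of Vstm2b (blue, plus strand) and A230077H06Rik (orange, minus strand), drawn to scale as distance in kb from the start of Vstm2b-201, with the whole pair above and the overlap below. Thin lines are introns, low boxes are exons, tall boxes are coding sequence, and grey bands mark the 2 stretches of 102 and 120 bases in which exons of both strands overlap.

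The shared exon bases form 2 stretches. The first, chr7:40898328-40898429, is the first exon of Vstm2b-201, within its 5′ UTR, and lies in the first exon of A230077H06Rik-204. The second, chr7:40900776-40900895, is a coding exon of Vstm2b-202 and lies in the first exon of A230077H06Rik-202. It is printed because a read from it can be given to one gene or the other by its strand alone. Beside it stand 2 stretches whose reads belong to 1 gene only. These are the 60 coding bases that begin Vstm2b-202 and occur in all 4 transcripts of Vstm2b, and the 126-base exon present in 3 of the 4 transcripts of A230077H06Rik. All are written 5′ to 3′ on the strand of the gene named.
Shared, Vstm2b strand, chr7:40900776-40900895: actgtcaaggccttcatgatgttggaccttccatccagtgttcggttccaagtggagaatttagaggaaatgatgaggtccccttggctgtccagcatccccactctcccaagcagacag
Vstm2b, not shared, chr7:40900129-40900188: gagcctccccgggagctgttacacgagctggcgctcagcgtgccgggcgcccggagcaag
A230077H06Rik, not shared, chr7:40874134-40874259: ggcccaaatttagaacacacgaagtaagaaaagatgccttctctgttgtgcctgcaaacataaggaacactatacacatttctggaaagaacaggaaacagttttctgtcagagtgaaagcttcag

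The RefSeq promoter windows of the pair, 250 bases before to 50 bases after each RefSeq start (GRCm38.p6), differ in base composition. The Vstm2b window, chr7:40899028-40899327, is 73.7% G and C, a share above that of 94.9% of the 32851 windows of all genes, and holds 34 CpG dinucleotides against a median of 7. The A230077H06Rik window, chr7:40898275-40898574, is 62.0% G and C with 9 CpG dinucleotides. TGACAG, searched on both strands, is absent from the Vstm2b window and occurs once in that of A230077H06Rik, beginning 15 bases after the start. The RefSeq start used for Vstm2b, 40899278, is that of Vstm2b-203, 950 bases inside Vstm2b-201. The match lies before the start of Vstm2b-201, 40898328, which is 4 bases from that of A230077H06Rik-201. Thus it is near annotated starts of both genes, although outside the Vstm2b window. TGACAG occurs in 19.2% of all windows, so a single match is common, and it is no evidence of binding. The match is shown with its surroundings, the hexamer in capitals, and is followed by the part of the window before it that lies in an intron of Vstm2b-201 and in the first exon of A230077H06Rik-204.
MEIS core, A230077H06Rik strand, chr7:40898292-40898321: agcaagaccaagTGACAGtgaagactagga
Upstream part, A230077H06Rik strand, chr7:40898430-40898574: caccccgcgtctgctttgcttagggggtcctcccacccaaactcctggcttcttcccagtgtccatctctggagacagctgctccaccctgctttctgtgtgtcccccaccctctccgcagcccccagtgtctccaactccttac

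The libraries held 23854607 to 29103444 counts. Meis2 stood at 102 ± 7.20 CPM (counts per 1000000 counts, scaled by TMM) in WT, 95.2 ± 6.28 in Isl1Cre/+ libraries and 40.7 ± 0.255 in mutant libraries (SD, n = 3), and Isl1 at 260 ± 30.3, 185 ± 19.0 and 187 ± 24.5 CPM. All 12 markers of sensory ganglion neurons passed the count minimum and summed to 13925 to 22501 CPM, whereas 1 of 9 spinal cord markers did. WT library 1 and mutant library 2 stood apart, with median rank correlations to the other libraries of 0.981 and 0.979 against 0.991 to 0.995 for the rest. WT library 1 had the highest sum of sensory neuron markers. Mutant library 2 had the highest sums of 8 skeletal muscle markers (2057 CPM) and 7 red cell markers (3964 CPM). It also had the highest sums of macrophage markers (154 CPM) and fibroblast markers (4904 CPM). Summed muscle markers ranged from 116 to 899 CPM in WT, from 62.1 to 160 CPM in Isl1Cre/+ libraries and from 126 to 2057 CPM in mutant libraries, and summed red cell markers from 910 to 1949, 347 to 984 and 1159 to 3964 CPM.

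Both genes were expressed at a low level, and at a similar number of counts. Vstm2b had 340, 296 and 361 counts in WT libraries 1, 2 and 3, against 395, 277 and 336 counts in Isl1Cre/+. Its mutant libraries had 252, 263 and 217 counts. A230077H06Rik had 287, 284 and 378 counts in WT and 358, 276 and 300 counts in Isl1Cre/+. Its mutant libraries had 209, 227 and 165 counts. In raw counts, every mutant library was below every control library for both genes, as for 10.5% of the tested genes. The 3 mutant libraries also held fewer counts in total than any control library, so raw counts lean this way through depth. Averaged over the 9 libraries, 23.1% of the tested genes had fewer CPM than Vstm2b and 21.1% had fewer than A230077H06Rik. Per kb of exon, the mean level of Vstm2b was 4.0 CPM and that of A230077H06Rik 1.90 CPM, against a median of 6.51 CPM per kb over the tested genes.

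Relative to library size and composition, Vstm2b stood at 12.7, 10.4 and 12.5 CPM in WT, with a mean of 11.9 ± 1.27 (SD, n = 3). In Isl1Cre/+ it stood at 13.4, 9.85 and 11.8 CPM, with a mean of 11.7 ± 1.77. In the mutant it stood at 9.42, 9.94 and 8.86 CPM, with a mean of 9.41 ± 0.542. The 3 mutant libraries were below the 3 WT libraries, but mutant library 2 was above Isl1Cre/+ library 2, so that after scaling the mutant and Isl1Cre/+ overlapped. The order of the genotype means was WT, Isl1Cre/+ and mutant, and the first pair in this order differed by less than the spread within either genotype.

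A230077H06Rik stood at 10.7, 10.001 and 13.1 CPM in WT, with a mean of 11.3 ± 1.60 (SD, n = 3). In Isl1Cre/+ it stood at 12.1, 9.82 and 10.5 CPM, with a mean of 10.8 ± 1.18. In the mutant it stood at 7.82, 8.58 and 6.74 CPM, with a mean of 7.71 ± 0.927. The order of the genotypes was the same as for Vstm2b, and here every mutant library was below all 6 control libraries. That was so for 75 of the 13200 genes tested, or 0.568%. Taken separately, 1.74% of the genes had all mutant libraries below those of WT and 4.2% had them below those of Isl1Cre/+. Since low values in the mutant are what the pair was selected on, these shares are given as background and not as a test.

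**Figure D2:**
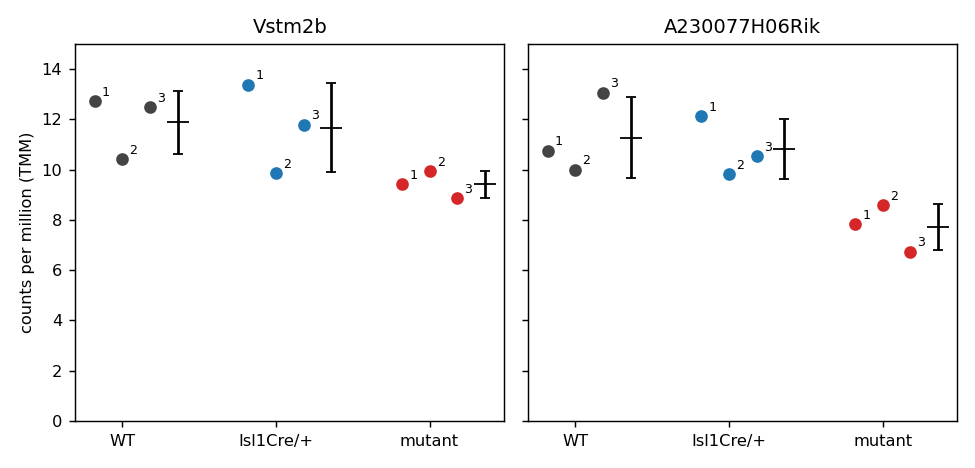
CPM (TMM) of Vstm2b (left) and A230077H06Rik (right) in each library by genotype, numbered by replicate, with the mean and SD of 3 libraries beside them in black. The mutant libraries of A230077H06Rik, at 6.74 to 8.58 CPM, lie below all 6 controls, and those of Vstm2b, at 8.86 to 9.94 CPM, overlap with Isl1Cre/+ library 2 at 9.85 CPM.

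The comparison of Isl1Cre/+ with WT asks how the pair differed between the control genotypes. It was no criterion of selection itself, but its libraries entered the correlation that helped to select the pair. Its p-values are therefore given as a description. These genotypes also differed in red cell and muscle genes, as given below, so the Cre allele is not the only difference between the libraries. Neither gene met the criterion of a fold change of at least 1.2 with an unadjusted p under 0.05, which 185 of the 13200 genes (1.4%) met. The log2 fold change of Vstm2b was -0.01 with a standard error of 0.14 (unadjusted p = 0.931, adjusted p = 0.9999, edgeR quasi-likelihood test). That of A230077H06Rik was -0.05 with a standard error of 0.14 (unadjusted p = 0.740, adjusted p = 0.9999, edgeR quasi-likelihood test). An interval of 2 standard errors on either side ran from -0.29 to 0.27 for Vstm2b and from -0.33 to 0.23 for A230077H06Rik, so that a decrease of the size of the fold criterion lies within both intervals. The sign of both values turned when single libraries were left out.

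For the mutant, the fitted differences are given as a description. Against WT, the log2 fold change of Vstm2b was -0.34 with a standard error of 0.13, or 0.792 of the WT level, and that of A230077H06Rik was -0.55 with a standard error of 0.15, or 0.684 of the WT level. Against Isl1Cre/+, the log2 fold changes were -0.31 for Vstm2b and -0.49 for A230077H06Rik, both with a standard error of 0.13, or 0.806 and 0.713 of the level in Isl1Cre/+. The median log2 fold change over all tested genes was -0.01 and 0.00 in these comparisons. The criterion was met by 0.318% of the genes in the mutant against WT and by 1.67% in the mutant against Isl1Cre/+. The comparisons share the mutant libraries. With WT library 1 and mutant library 2 left out, the values against WT were -0.32 for Vstm2b and -0.66 for A230077H06Rik, and those against Isl1Cre/+ were -0.35 and -0.56. With Isl1Cre/+ library 1 alone left out, the value of Vstm2b against Isl1Cre/+ was -0.20 with a standard error of 0.13. In whole ganglia, fewer cells that express a gene and less RNA per cell cannot be told apart.

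Of the counts assigned to the pair in a library, A230077H06Rik took 45.8%, 49.0% and 51.2% in WT libraries 1, 2 and 3. Its shares were 47.5%, 49.9% and 47.2% in Isl1Cre/+ libraries and 45.3%, 46.3% and 43.2% in mutant libraries. The pair had 382 to 753 counts in a library, and the exact (Clopper-Pearson) 95% interval of the share ran from 45.7% to 54.2% in Isl1Cre/+ library 2 and from 38.2% to 48.3% in mutant library 3. The intervals cover counting error only. The mean share was 48.6% ± 2.704 in WT, 48.2% ± 1.49 in Isl1Cre/+ libraries and 45.0% ± 1.60 in mutant libraries (SD, n = 3). Between the control genotypes the share differed by -0.42 percentage points with a standard error of 1.78 (Isl1Cre/+ minus WT). This is a description, since the share is made from the raw counts whose correlation helped to select the pair, and an exact permutation test of 3 against 3 libraries cannot give a two-sided p below 0.10. The mutant shares were below those of all Isl1Cre/+ libraries and overlapped with WT, since mutant library 2 was above WT library 1. Scaled by the exon bases that each gene does not share, A230077H06Rik made up 32.3% ± 2.36 of the pair in WT, 32.0% ± 1.30 in Isl1Cre/+ libraries and 29.2% ± 1.33 in mutant libraries.

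**Figure D3:**
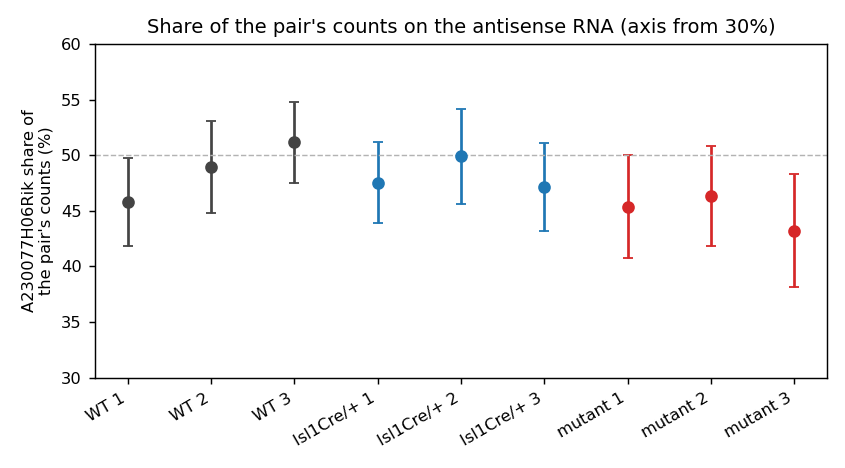
Share of the pair's raw counts that fell on A230077H06Rik in each library (percent, axis from 30%), coloured by genotype, with exact 95% binomial intervals. The shares run from 43.2% in mutant library 3 to 51.2% in WT library 3, and the dashed line marks equal counts on both genes.

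The pair moved together over the libraries. Across the 9 libraries, Pearson's r of the raw counts was 0.940 and Spearman's rho 0.967, and on log2 CPM they were 0.903 and 0.933. These values helped to select the pair and carry no p, and each library contributes both of its values from the same tissue, depth and scaling. Part of the correlation is the difference between genotypes. Taken as deviations from the genotype means, r on log2 CPM was 0.772, and within the 6 control libraries it was 0.773 (rho 0.829). Without the 2 libraries farthest from the median of Vstm2b, WT library 1 and Isl1Cre/+ library 1, r over the remaining 7 was 0.933. With the 2 controls farthest from their median left out, WT library 2 and Isl1Cre/+ library 2, r over the other 4 was 0.443. These 2 libraries are the lowest controls for both genes, so leaving them out also narrows the range of values.

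**Figure D4:**
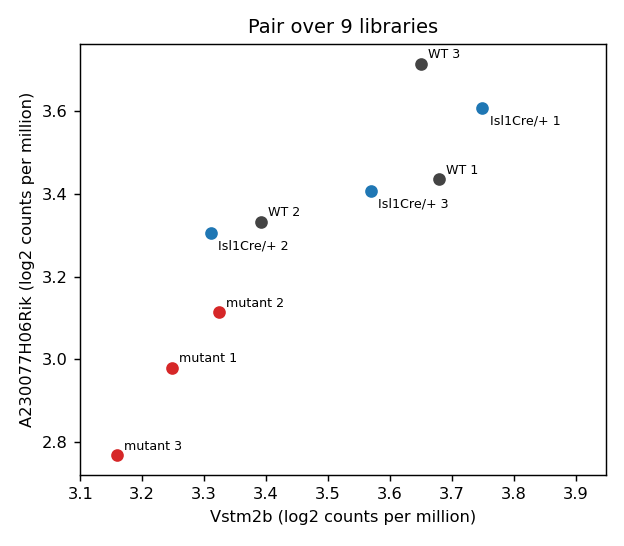
Log2 CPM of A230077H06Rik against Vstm2b in the 9 libraries, coloured by genotype (grey, WT; blue, Isl1Cre/+; red, mutant). The 3 mutant libraries lie lowest on the vertical axis, and the 6 controls also line up from low to high, with r of 0.773 among them.

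Among the 13199 other tested genes, Vstm2b was the most alike to A230077H06Rik in log2 CPM over the 9 libraries. The next were Vcp-rs (r = 0.891), a processed pseudogene whose reads may be shared with its parent gene, Tuba8 (r = 0.877), an alpha tubulin, Grid1 (r = 0.876), a delta-type glutamate receptor, and Adgrg3 (r = 0.849), an adhesion G protein-coupled receptor. In the other direction A230077H06Rik held place 6. The genes closer to Vstm2b were Wbp11 (r = 0.970), a splicing-related protein, Tuba8 (r = 0.928), the zinc finger genes Zcchc2 (r = 0.918) and Zbtb43 (r = 0.907), and Trim68 (r = 0.908), of the tripartite motif family. None of these is a neighbour of the pair. All had a negative log2 fold change in both comparisons of the mutant, that of Tuba8 being -0.47 and -0.67. Within the 6 control libraries, r with A230077H06Rik was 0.531 for Vcp-rs, 0.555 for Tuba8, 0.708 for Grid1 and 0.717 for Adgrg3. That with Vstm2b lay between 0.825 for Trim68 and 0.955 for Wbp11. The paper lists Tuba8, Adgrg3 and A230077H06Rik among its 10 genes changed against both controls. On deviations from the genotype means over the 9 libraries, the partner held place 138 of the genes alike to Vstm2b and place 86 of those alike to A230077H06Rik. Within the 6 control libraries these places were 431 and 324. The places are a description.

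As background to the correlation of the pair, the 13200 tested genes contained 1024 pairs with exons that overlap on opposite strands, with a median r of 0.174 on log2 CPM (quartiles -0.191 and 0.551). In 25 of these pairs, 2.44%, r was at least as high as the 0.903 of Vstm2b and A230077H06Rik, which are themselves counted. The pair was selected on this correlation, so its place among the others is no finding. Of the 110 pairs of a coding and a noncoding gene, 6 reached it. Within the 6 control libraries, 197 of the 1024 pairs, or 19.2%, reached the r of 0.773. The extent of the overlap was ordinary, since 53.9% of the pairs share at least as many exon bases. In scaled CPM, 0 of the 1024 pairs had both genes below all 6 control libraries in every mutant library, and in raw counts 25 pairs did, among them Vstm2b and A230077H06Rik.

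The methods do not state whether the strand of a read was used in counting, and without it, reads from a shared stretch cannot be told apart. The 2 stretches are short relative to both genes. Among 477 genes whose exons lie entirely opposite to exons of other genes, 241 had at least 1 count and 1 reached 100 counts in a library.

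Of 6 genes listed as the VSTM family, named after the same kind of domain, 4 besides Vstm2b were found and all 4 were tested, namely Vstm2a and Vstm2l, which are closest to Vstm2b by name, Vstm4 and Vstm5. Vstm1 was not analysed here. Vstm5 and Vstm2l were far more abundant than Vstm2b per kb of exon, at 61.5 and 55.6 CPM per kb over the 9 libraries, and Vstm2a and Vstm4 stood at 7.08 and 5.62. None of the 4 met the criterion in any of the 3 comparisons, by edgeR, DESeq2 or limma voom, and 0 had an unadjusted p under 0.05 in edgeR. Of all 13200 tested genes, 236 had such a p in Isl1Cre/+ against WT. There were 49 in the mutant against WT and 360 in the mutant against Isl1Cre/+, so 0 of 4 genes is no finding. Against WT, the log2 fold changes in the mutant were 0.03 with a standard error of 0.11 for Vstm2a and 0.03 with a standard error of 0.11 for Vstm5. Those of Vstm4 (0.14, standard error 0.26) and Vstm2l (-0.32, standard error 0.25) had larger standard errors. The differences between these values and that of Vstm2b were not tested. Vstm2l had an SD of 33.8 CPM around a WT mean of 86.7, and against Isl1Cre/+ its log2 fold change in the mutant was -0.04 with a standard error of 0.07.

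Of 45 genes of neuronal immunoglobulin superfamily adhesion, a list without Vstm2b, all were tested and 0 met the criterion in any comparison by edgeR, DESeq2 or limma voom. At an unadjusted p under 0.05 alone, edgeR gave 0 genes in both comparisons with WT and 1 in the mutant against Isl1Cre/+. At the shares given above for all tested genes, counts this low among 45 genes are no finding. The median log2 fold change of the list was -0.06 in the mutant against WT, with 37 of 45 genes below 0, and -0.07 against Isl1Cre/+, with 36 of 45 below 0. Over all tested genes 53.8% and 49.8% were below 0 in these comparisons. In Isl1Cre/+ against WT the median of the list was 0.01, with 19 of 45 genes below 0. Of 12 sensory ganglion neuron genes, 10 were below 0 in both comparisons of the mutant, with median log2 fold changes of -0.10 against WT and -0.05 against Isl1Cre/+. Only Isl1 among them met the criterion by edgeR, lower in the mutant and in Isl1Cre/+ than in WT. Of 14 mechanoreceptor and proprioceptor genes, 11 were below 0 in the mutant against WT (median -0.10) and 7 against Isl1Cre/+ (median 0.00), where Calb2 was called lower by edgeR and DESeq2 but not by limma voom. In Isl1Cre/+ against WT, 12 of these 14 genes were below 0 (median -0.12), as were 9 of the 12 sensory ganglion neuron genes (median -0.03). Of 11 nociceptor genes, 6 were below 0 in the mutant against WT (median -0.02) and 9 against Isl1Cre/+ (median -0.06). For 10 Schwann and satellite glia genes these numbers were 6 (median -0.04) and 8 (median -0.07). In the mutant against WT, 2 of 14 mechanoreceptor and proprioceptor genes and 1 of 11 nociceptor genes met the criterion, all lower, and 0 of 10 markers of Schwann and satellite glia did, by edgeR, DESeq2 or limma voom, with 0 at an unadjusted p under 0.05 alone. Of the red cell and muscle lists, 0 of 6 tested genes each met it in this comparison by the same tools, although all 6 of both lists were above 0, with median log2 fold changes of 0.68 for red cells and 0.92 for muscle. All 6 tested genes of both lists were called lower in Isl1Cre/+ than in WT by edgeR, with median log2 fold changes of -1.34 for red cells and -2.06 for muscle (limma voom called 6 red cell genes and 2 muscle genes). In the mutant against Isl1Cre/+ all 6 tested genes of both lists met it as higher, with median log2 fold changes of 2.07 and 2.99 (limma voom called 6 red cell genes and 3 muscle genes). Of 7 macrophage and 6 fibroblast genes tested, 0 met it in any comparison by these tools. All 7 macrophage genes were below 0 in Isl1Cre/+ against WT (median -0.21) and above 0 in the mutant against Isl1Cre/+ (median 0.39). Of 7 endothelial genes, 3 were called higher in Isl1Cre/+ than in WT and 1 was called lower in the mutant than in Isl1Cre/+. All 7 were above 0 in the former comparison (median 0.26) and all 7 below 0 in the latter (median -0.15). The part of these lists in the values of the pair was not tested.

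The table holds 57 other genes within 1 Mb of either end of the pair. Most of them were silent in the ganglia, with 33 at 0 counts in all libraries and none of the 53 untested genes above 31 counts in a library. The 4 tested genes all lie beyond the 3′ end of Vstm2b. They are AI987944, at 442 kb, AW146154, 2610021A01Rik, and Zfp788, a zinc finger gene, and as members of a multigene family they may share reads. In the mutant against WT their log2 fold changes were 0.01 (AI987944, standard error 0.12), 0.12 (AW146154, standard error 0.17), 0.05 (2610021A01Rik, standard error 0.17) and 0.01 (Zfp788, standard error 0.12). None met the criterion in any comparison by edgeR, DESeq2 or limma voom, and 0 had an unadjusted p under 0.05 in edgeR. At the shares given above for all tested genes, 0 of 4 genes is no finding. Across the 9 libraries their r with Vstm2b lay between -0.447 for AW146154 and -0.199 for 2610021A01Rik, and their r with A230077H06Rik between -0.224 for AW146154 and 0.072 for 2610021A01Rik.

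**Figure D5:**
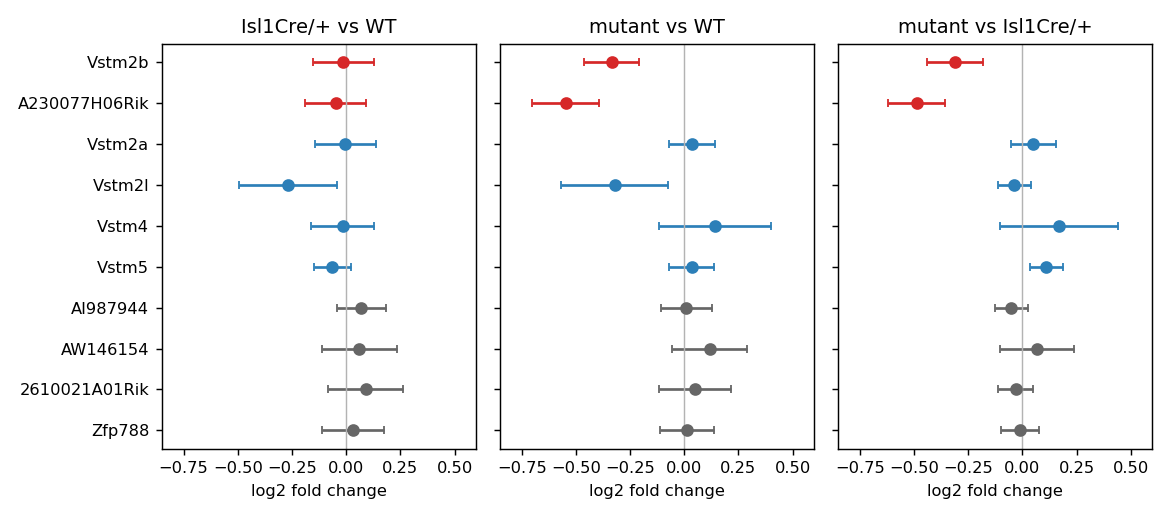
Log2 fold changes with standard errors (edgeR, bars to 1 standard error) in the 3 comparisons for Vstm2b and A230077H06Rik (red), the other tested VSTM genes (blue) and the other tested genes within 1 Mb (grey). Both members lie near 0 in Isl1Cre/+ against WT and between -0.55 and -0.31 in the mutant, where the 4 neighbours lie between -0.05 and 0.12.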

How the data were processed

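RNA-seq of DRGs from 9 embryonic libraries (WT, Isl1Cre/+ and mutant, 3 each) was analysed at the level of genes. The authors prepared poly(A) RNA with CORALL kits that add unique molecular identifiers, aligned single-end reads of 84 bases to mm10 with STAR 2.7.10, removed duplicates with UMI-tools and deposited raw read counts per gene from HTSeq 0.6. The annotation release and the strand option are not given in the sources used here. The deposited table also holds fold changes, p-values and other statistics of the authors' own limma comparisons, which were not used. Genes reaching 100 counts in any of the libraries were normalized by TMM and tested with edgeR 4.0.16 (R 4.3.3), each pair of genotypes alone, with Benjamini-Hochberg adjustment over all 13200 genes. CPM are TMM scaled, and log2 CPM carry a prior count of 2. Genomic positions follow GENCODE M21 and promoter windows RefSeq, where both genes matched. Alternatives used DESeq2 1.42.0 and limma 3.58.1, other scalings and filters, a replicate block and each library left out. The study describes its replicates in general as biological. Whether a library is 1 embryo, a pool or a litter is not given in the sources used here, so p-values measure the spread between these libraries. Replicates differed by more than counting error, with a chi-square of 12.6 to 129 per degree of freedom. The scripts were tested on simulated data. The members and gene lists were chosen with earlier results of these data known. Besides the pair, the genes named were Meis2, Isl1, the tested VSTM genes, tested genes within 1 Mb, and the 5 genes most correlated with each member. Calb2 was named for its call, and Vstm1 as a listed gene that was not analysed.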

Additional observations from a re-analysis of the deposited data

How the results depend on the processing

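In the mutant, both genes kept a negative log2 fold change in every alternative run. Since low values in the mutant of these same libraries selected the pair, the kept sign is a description and no test. By DESeq2, the value of Vstm2b against Isl1Cre/+ was -0.31 with a standard error of 0.17. With single libraries left out, Vstm2b ranged from -0.42 to -0.28 against WT and from -0.42 to -0.20 against Isl1Cre/+, and A230077H06Rik from -0.63 to -0.43 and from -0.56 to -0.40. In Isl1Cre/+ against WT the value of Vstm2b turned to 0.017 with library size only and to 0.0168 without WT library 1. With single libraries left out it ranged from -0.12 to 0.093, and A230077H06Rik from -0.13 to 0.079. No alternative brought either gene past the criterion there.

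The number of genes called depended more on the settings. Without a filter on low counts it was 845 in Isl1Cre/+ against WT, 408 in the mutant against WT and 1028 in the mutant against Isl1Cre/+, where 185, 42 and 221 were called. With at least 100 counts in every library it was 104 in the first and 139 in the last. With single libraries left out it ranged from 102 to 340, from 40 to 132 and from 167 to 407. Without both WT library 1 and mutant library 2, an alternative chosen after seeing the data, it was 182 in the mutant against WT. In Isl1Cre/+ against WT this leaves out WT library 1 alone, which gave the 340 above. The cause was not tested.

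Per kb of unshared exon, the share of A230077H06Rik was 32.3% in WT, 32.0% in Isl1Cre/+ and 29.2% in the mutant, by construction lower than the share of counts since its exons are longer. The correlation of the pair was 0.772 on deviations from genotype means and 0.873 to 0.936 with single libraries left out. Whether replicate numbers pair the libraries was not settled. Deviations of same-numbered libraries from the genotype means correlated at -0.595 to 0.389 across genes. With 3 libraries per genotype and no values for differently numbered libraries beside them, these correlations cannot decide it. With the replicate block, 31 genes were called in the mutant against WT, 236 in Isl1Cre/+ against WT and 177 in the mutant against Isl1Cre/+, and the log2 fold changes in the mutant against WT were -0.33 for Vstm2b and -0.54 for A230077H06Rik. At 165 to 395 counts per gene and library, counting error alone limits how small a change can be seen.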
